A study of Mus musculus with 24 samples.

Results

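The genes described here encode 8 chaperones and folding enzymes of the endoplasmic reticulum (ER): Hspa5, Hsp90b1, Calr, Canx, Pdia3, Pdia4, Pdia6 and P4hb. Their signals were read in uteri of progesterone receptor knockout (PRKO) and wild-type (WT) mice given progesterone (P4) or vehicle. Members were taken from the platform annotation as probe sets that name 1 of these genes and no other gene. This gave 12 probe sets of the 12422 tested, for 8 of the 8251 genes named by a probe set of their own. Hspa5, Hsp90b1, Calr, Pdia3 and Pdia4 had 1 probe set each, Canx and P4hb had 2 each and Pdia6 had 3. Where a gene had several, they are named by their mean signal as bright, middle and dim.

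All mice were ovariectomized at 6 weeks of age and rested for 2 weeks, so the uteri of every group lacked ovarian hormones until the injections. P4 was given at 1 mg per mouse in sesame oil, and the vehicle was sesame oil alone. The 40 h groups were killed 4 h after the fourth of 4 injections spaced 12 h apart, and the 4 h groups 4 h after a single injection. The 8 groups of 3 arrays were thus PRKO P4, PRKO vehicle, WT P4 and WT vehicle at 40 h, and the same 4 groups at 4 h, with RNA pooled from 5 mice per genotype and treatment. The labels name neither the PRKO allele nor the strain. Nothing there tells if replicate arrays came from different pools of RNA, so the errors and p-values below measure the spread between arrays, which may be technical.

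Proteins that are secreted or placed in membranes fold inside the ER, where these chaperones hold them until they are correctly shaped. Hspa5 (BiP) and Hsp90b1 (GRP94) bind unfolded chains, Calr and Canx bind glycoproteins through their sugars, and Pdia3, Pdia4, Pdia6 and P4hb make and rearrange disulfide bonds. Cells raise such genes together in the unfolded protein response, a signalling route that senses misfolded protein in the ER and works in part through a promoter motif called the ER stress response element. In the uterus, P4 acts through its receptor on stroma, epithelium and smooth muscle and prepares the tissue for implantation, which includes the making of secreted and matrix proteins.

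The start regions of 4 of the genes are shown because Hspa5 is the textbook gene of that element, and Hsp90b1, Pdia6 and Pdia4 were the members closest to the set's mean signal across arrays. Each run is the RefSeq window in build GRCm38.p6 from 250 bases before to 50 bases after the annotated gene start, read 5′ to 3′ on the strand of the gene. Capitals mark the ER stress response element, searched on both strands as CCAAT, then any 9 bases, then CCACG. Hspa5 lies at chr2:34771840-34772139 on the plus strand, Hsp90b1 at chr10:86705395-86705694 on the minus strand, Pdia6 at chr12:17266339-17266638 on the plus strand and Pdia4 at chr6:47813463-47813762 on the minus strand.
Hspa5: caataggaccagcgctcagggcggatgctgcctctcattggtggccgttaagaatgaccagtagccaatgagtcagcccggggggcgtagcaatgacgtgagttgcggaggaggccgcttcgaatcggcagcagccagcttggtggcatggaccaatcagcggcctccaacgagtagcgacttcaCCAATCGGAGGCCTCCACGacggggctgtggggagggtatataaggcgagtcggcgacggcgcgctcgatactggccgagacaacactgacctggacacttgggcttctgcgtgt
Hsp90b1: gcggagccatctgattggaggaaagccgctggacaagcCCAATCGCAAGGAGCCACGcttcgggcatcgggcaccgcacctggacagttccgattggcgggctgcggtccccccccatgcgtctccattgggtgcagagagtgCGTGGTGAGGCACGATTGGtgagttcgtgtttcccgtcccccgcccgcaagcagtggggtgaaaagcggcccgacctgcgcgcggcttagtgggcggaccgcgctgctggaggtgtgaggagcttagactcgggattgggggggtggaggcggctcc
Pdia6: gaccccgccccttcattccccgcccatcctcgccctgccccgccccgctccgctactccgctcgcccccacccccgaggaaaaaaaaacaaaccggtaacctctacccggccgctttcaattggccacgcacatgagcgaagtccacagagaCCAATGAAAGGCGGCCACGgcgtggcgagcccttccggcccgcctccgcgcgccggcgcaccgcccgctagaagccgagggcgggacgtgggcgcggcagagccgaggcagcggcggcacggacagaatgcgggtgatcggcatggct
Pdia4: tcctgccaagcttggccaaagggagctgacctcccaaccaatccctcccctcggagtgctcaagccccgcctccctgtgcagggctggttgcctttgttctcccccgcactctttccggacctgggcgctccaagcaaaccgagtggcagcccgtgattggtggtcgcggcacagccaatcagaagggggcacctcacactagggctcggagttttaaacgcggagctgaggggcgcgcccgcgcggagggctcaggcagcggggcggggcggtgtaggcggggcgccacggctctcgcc

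All 8 genes had a window in the RefSeq table, built on the same assembly. The genes span chr2:34772090-34776529 for Hspa5, chr10:86690841-86705444 for Hsp90b1, chr8:84842088-84846931 for Calr and chr11:50293957-50325673 for Canx. The disulfide enzymes span chr2:121413902-121438687 for Pdia3, chr6:47796141-47813512 for Pdia4, chr12:17266589-17284785 for Pdia6 and chr11:120560298-120573253 for P4hb. The element stood in 5 of the 8 windows, against 0.119% of the 32851 windows of that length. Hsp90b1 held it at 2 places, 212 and 107 bases before the gene start, and Hspa5 held it 65, Pdia6 98, Canx 145 and Calr 162 bases before it. Pdia3, Pdia4 and P4hb held no exact copy. The bare CCAAT box, which is part of every such element, stood in all 8 member windows and in 37.4% of all windows, from 1 place for P4hb to 6 for Hsp90b1. A second form of the element, ATTGG, any 1 base and CCACG (0.0365% of windows), and TGACGTGG, the element of the unfolded protein response factors (0.676%), stood in 0 of the 8. A core form of the progesterone response element, ACANNNTGT, stood in 0 of the 8 and in 6.85% of all windows. All were searched on both strands. These matches describe letters in short windows, and no binding was measured.

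Deposited values were signal intensities on a linear scale, and array medians lay between 323.2 and 342.6. On 2 arrays the 3' to 5' signal ratio of the Gapdh control, a sign of RNA integrity, was high, at 3.25 for WT P4 4 h replicate 2 and 3.67 for WT vehicle 4 h replicate 2, against 1.23 to 1.86 on the other arrays. Smooth muscle, epithelial and stromal markers of the uterus were present on all arrays, with Acta2 averaging 8337, Krt19 1736 and Dcn 8805 units. The Pgr probe set, the targeted gene, read 115.5 to 139 on PRKO arrays at 40 h against 129.8 to 169 on WT arrays, and 114 to 131 against 107 to 151 at 4 h. In matched groups all PRKO arrays lay below all WT arrays with P4 at 40 h and with vehicle at 4 h, and the other 2 pairs overlapped. The difference in vehicle uteri did not pass at either time (limma adjusted p = 1), so this low probe set did not settle the genotype labels. In whole uterus, fewer cells of a type and less RNA per cell cannot be told apart.

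No member passed the test for P4 in either genotype at either time, although some members had wide intervals. Log2 fold changes below compare 3 arrays with 3 in a limma fit of all 24 arrays on log2(scaled signal + 32), given ± standard error. The error uses the spread of a probe set over all 24 arrays, so 40 h intervals also carry the scatter at 4 h. A probe set passed at a Benjamini-Hochberg adjusted p under 0.05 over all 12422 probe sets. At 40 h, limma called 0 of the 12 member probe sets in PRKO uteri, where it called 0% of all probe sets, and 0 of 12 in WT uteri, where it called 1.54%. At an unadjusted p under 0.05 the counts were 1 of 12 in PRKO uteri (6.69% of all probe sets) and 3 of 12 in WT uteri (11.7%). At 4 h, limma called 0 of 12 in PRKO uteri (0% of all) and 0 of 12 in WT uteri (0.708% of all), with 0 of 12 in both at an unadjusted p under 0.05 (1.9% and 6.23% of all).

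**Figure D1:**
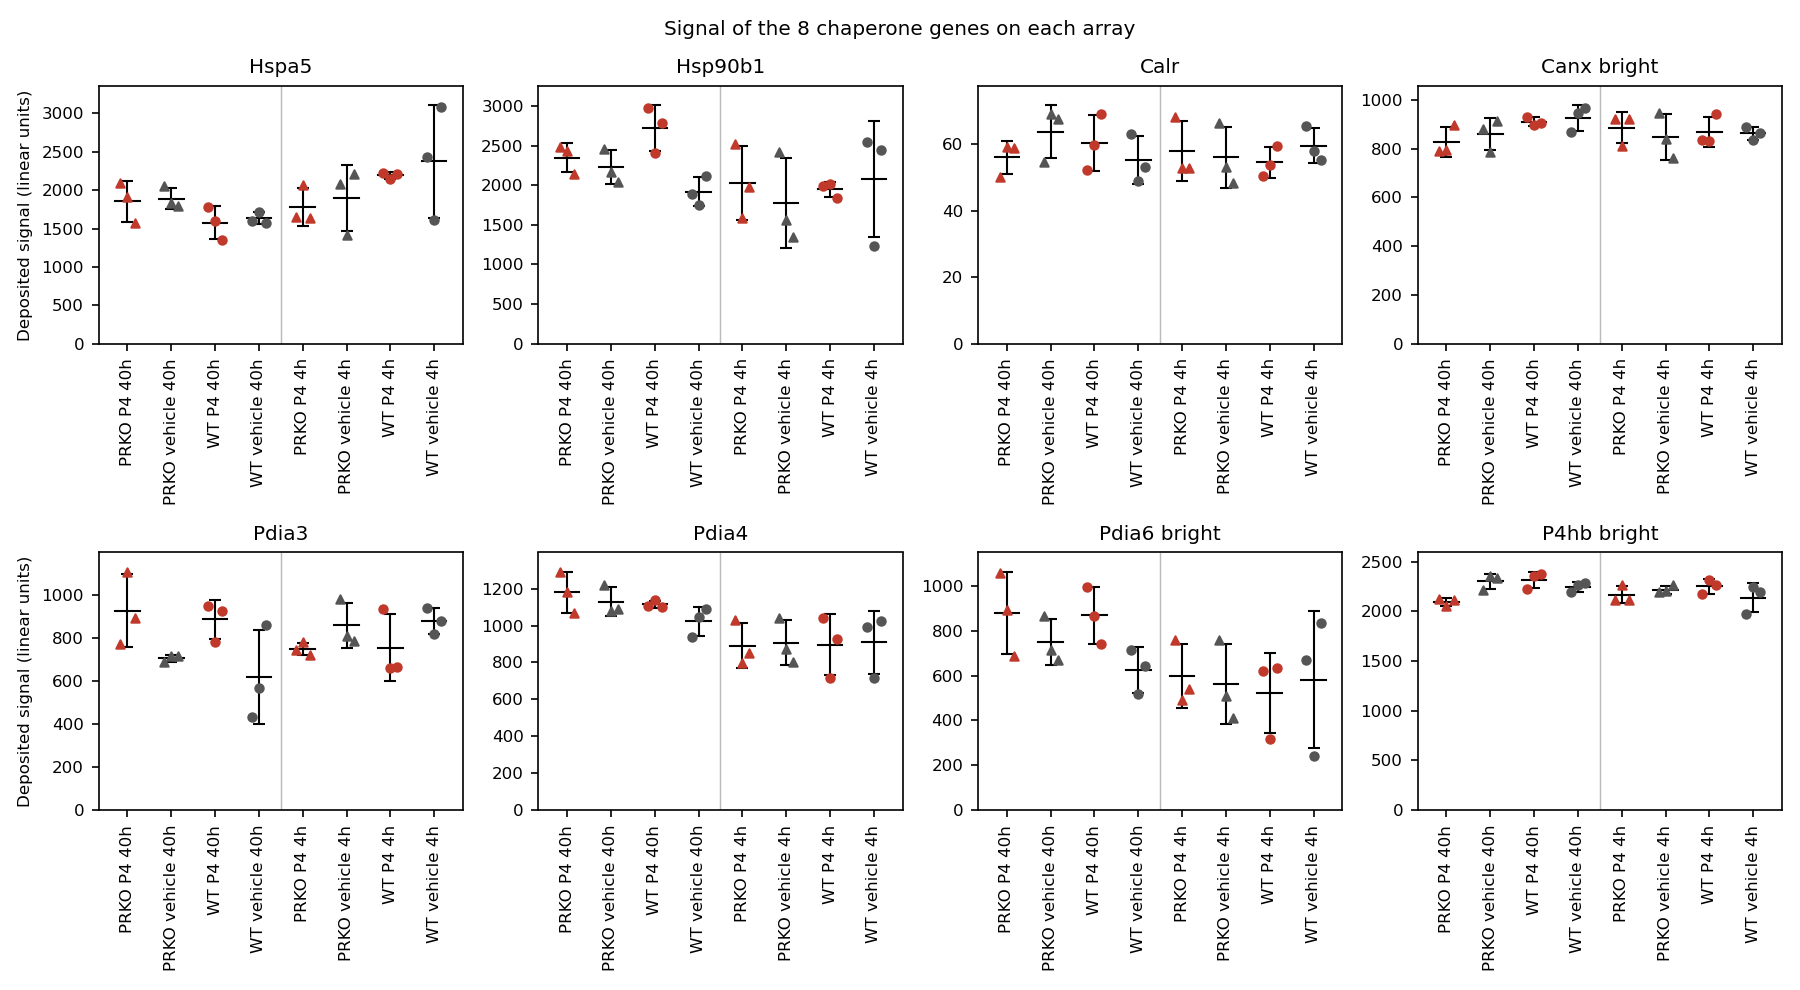
Deposited signal (linear units, axis from 0) of the brightest probe set of each of the 8 genes on every array, with 40 h groups left of the vertical line and 4 h groups right of it. Triangles are PRKO and circles WT arrays, red is P4 and grey vehicle, and bars show mean ± SD of 3 arrays. Hsp90b1 on the 3 WT P4 40 h arrays sits above the 3 WT vehicle 40 h arrays, and Pdia6 on the WT 4 h arrays spreads from 241 to 833.

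Hsp90b1, the ER form of the Hsp90 chaperones, had the clearest separation among the general chaperones. Its signal was 2482, 2428 and 2139 in PRKO uteri given P4 for 40 h, against 2463, 2169 and 2044 in PRKO vehicle uteri. In WT uteri at 40 h it was 2976, 2408 and 2784 after P4, against 1884, 1756 and 2123 after vehicle. The PRKO groups overlapped, while all 3 WT P4 arrays lay above all 3 WT vehicle arrays. The log2 fold change for P4 was 0.05 ± 0.21 in PRKO uteri (95% interval -0.39 to 0.48) and 0.51 ± 0.21 in WT uteri (0.07 to 0.94, a 1.42-fold ratio), with limma adjusted p = 0.957 and 0.312. The difference of the effects, PRKO minus WT, was -0.46 ± 0.30 (-1.08 to 0.16, adjusted p = 0.662). The WT value passed in 2 of 19 alternative fits, whose limma adjusted p ran from 0.0129, with arrays of the same time only, to 1. It fell to 0.17 where an adipocyte score was a covariate.

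Hspa5, the ER member of the Hsp70 family and the usual readout of ER stress, showed no such separation. At 40 h it read 2094, 1911 and 1566 in PRKO P4 uteri against 2052, 1830 and 1789 in PRKO vehicle uteri. In WT uteri it read 1780, 1593 and 1349 after P4 against 1603, 1720 and 1576 after vehicle. Both pairs overlapped. The P4 effect was -0.07 ± 0.17 in PRKO uteri (-0.41 to 0.28) and -0.05 ± 0.17 in WT uteri (-0.40 to 0.30), so the WT interval held differences of up to 0.40 downward and 0.30 upward on the log2 scale.

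Calr and Canx are the lectin chaperones of the glycoprotein folding cycle, and neither passed. The Calr probe set read only 48.5 to 69.2 over the 24 arrays, below the limit of 100 units that an alternative fit used to leave out low probe sets, and the added 32 units compress its fold changes. Its P4 effect at 40 h was -0.14 ± 0.09 in PRKO (-0.34 to 0.06) and 0.09 ± 0.09 in WT uteri (-0.11 to 0.29). The bright Canx probe set ranged from 759 to 965 on all arrays and gave -0.08 ± 0.09 in PRKO (-0.26 to 0.09) and -0.01 ± 0.09 in WT uteri (-0.19 to 0.16). The dim one ranged from 84.5 to 154 and read 117.9, 125 and 121 in PRKO P4 uteri against 107, 111 and 131 in PRKO vehicle uteri at 40 h. In WT uteri it read 86.8, 86.2 and 107 after P4 against 119.6, 110.1 and 117 after vehicle. The WT groups did not overlap, but the effect of -0.23 ± 0.11 did not pass (adjusted p = 0.432) and the bright probe set gave an interval around 0.

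Pdia3 (ERp57), the disulfide isomerase that works with Calr and Canx, had the lowest p-value of the members in WT uteri. At 40 h its signal was 775, 1110 and 896 in PRKO P4 uteri, against 688, 717 and 716 in PRKO vehicle uteri. In WT uteri it was 951, 784 and 926 after P4, against 434, 569 and 862 after vehicle. All 3 PRKO P4 arrays lay above the PRKO vehicle arrays, while WT vehicle replicate 3 reached into the range of WT P4. The P4 effect was 0.33 ± 0.17 in PRKO uteri (-0.01 to 0.67, limma adjusted p = 0.703) and 0.55 ± 0.17 in WT uteri (0.21 to 0.89, unadjusted p = 0.00318, adjusted p = 0.114, a 1.46-fold ratio). The difference, PRKO minus WT, was -0.22 ± 0.23 (-0.71 to 0.27, adjusted p = 0.805). The WT value passed in 3 of 19 alternative fits, with limma adjusted p = 0.0473 with a replicate block and 0.0412 with variance by time, both at 0.55, and 0.00877 without WT vehicle 40 h replicate 3, at 0.79. Without WT vehicle 40 h replicate 1 it was 0.34 with adjusted p = 0.4, and the highest over the 19 was 1.

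Pdia6 (P5), another disulfide isomerase, was read by 3 probe sets with different values. On the middle one, PRKO uteri at 40 h read 579.8, 471 and 422.5 after P4 against 516, 405 and 396 after vehicle. WT uteri read 704, 598 and 469.7 after P4 against 390.2, 365 and 414 after vehicle. All 3 P4 arrays lay above all 3 vehicle arrays in WT uteri, and the groups overlapped in PRKO uteri. The effect was 0.12 ± 0.19 in PRKO uteri (-0.27 to 0.51) and 0.56 ± 0.19 in WT uteri (0.17 to 0.95, unadjusted p = 0.00728, limma adjusted p = 0.174). The difference, PRKO minus WT, was -0.44 ± 0.26 (-0.99 to 0.11, adjusted p = 0.645). The bright probe set was built on the same sequence record and is no independent check. It read 1056, 894 and 687 in PRKO P4 uteri against 866, 715 and 672 in PRKO vehicle uteri, and 993.5, 867 and 743 in WT P4 uteri against 716, 516.5 and 642.5 in WT vehicle uteri. Its effect was 0.17 ± 0.31 in PRKO (-0.47 to 0.82) and 0.47 ± 0.31 in WT uteri (-0.18 to 1.11). The dim probe set gave 0.07 ± 0.09 in PRKO (-0.12 to 0.25) and 0.11 ± 0.09 in WT uteri (-0.08 to 0.30). The middle probe set's value in WT uteri passed in 2 of 19 alternative fits (adjusted p 0.0402 to 1) and fell to 0.26 with the adipocyte covariate.

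Pdia4 (ERp72) and P4hb (PDI, which is also a subunit of the collagen prolyl hydroxylase) complete the set of disulfide enzymes. Pdia4 at 40 h read 1291, 1182 and 1068 in PRKO P4 uteri against 1219, 1078 and 1087 in PRKO vehicle uteri, and 1107, 1136 and 1102 in WT P4 uteri against 935.5, 1046 and 1088 in WT vehicle uteri. The WT groups did not overlap, yet the effect was small, at 0.03 ± 0.13 in PRKO (-0.24 to 0.30) and 0.13 ± 0.13 in WT uteri (-0.14 to 0.40). P4hb on its bright probe set, whose platform suffix marks dropped selection rules for its probes, read 2125, 2052 and 2110 in PRKO P4 uteri against 2217, 2350 and 2331 in PRKO vehicle uteri at 40 h, with no overlap. In WT uteri it read 2224, 2353 and 2375 after P4 against 2191, 2263 and 2286 after vehicle, with overlap. Its effect was -0.16 ± 0.07 in PRKO uteri (-0.31 to -0.02, unadjusted p = 0.0282, limma adjusted p = 0.703) and 0.05 ± 0.07 in WT uteri (-0.09 to 0.20). The difference of these effects, -0.22 ± 0.10, had the smallest adjusted p of the members for that contrast, 0.541. The dim P4hb probe set gave -0.10 ± 0.13 in PRKO uteri (-0.37 to 0.18), with no overlap. In WT uteri it gave 0.01 ± 0.13 (-0.26 to 0.28), with overlap.

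**Figure D2:**
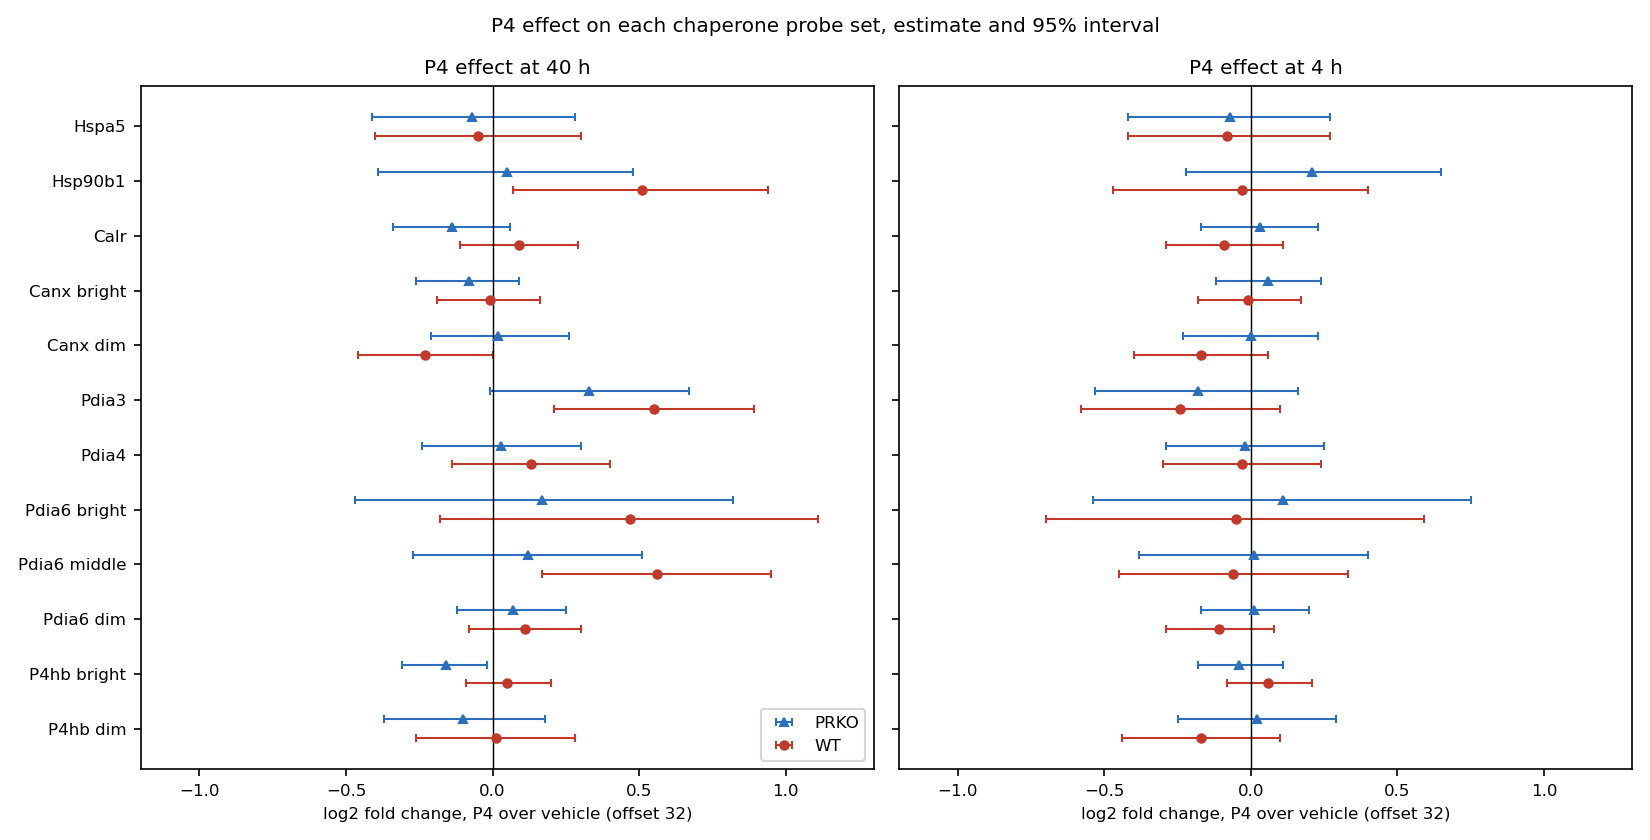
Log2 fold change of P4 over vehicle (x axis, offset 32) for each of the 12 member probe sets at 40 h (left) and 4 h (right), with 95% intervals from the limma fit, PRKO as triangles above WT as circles. At 40 h the WT intervals of Hsp90b1, Pdia3 and Pdia6 middle lie above 0 and the PRKO interval of P4hb bright lies below 0, and at 4 h every interval includes 0.

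Counted over the members at 40 h on the scaled values, all 3 P4 arrays lay above all 3 vehicle arrays for 1 of 12 probe sets in PRKO uteri (5.88% of all probe sets) and for 4 of 12 in WT uteri (9.76% of all). They lay below for 2 of 12 in PRKO uteri (16.4% of all) and for 1 of 12 in WT uteri (10% of all). The 4 in WT uteri were Hsp90b1, Pdia4 and the bright and middle probe sets of Pdia6, so they stand for 3 genes. The 2 that lay below in PRKO uteri were both probe sets of P4hb, so they stand for 1 gene. The median member effect was 0.027 in PRKO uteri, beside -0.042 over all probe sets, and 0.1 in WT uteri, beside 0.001. The members ranged from -0.16 to 0.33 in PRKO and from -0.23 to 0.56 in WT uteri.

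At 4 h the P4 and vehicle arrays overlapped for every member in both genotypes on the scaled values that the counts use. The shares of all probe sets with all P4 arrays above were 1.63% in PRKO and 3.65% in WT uteri, and with all below 2.69% in PRKO and 3.01% in WT uteri. Hspa5 read 1647, 2064 and 1631 in PRKO P4 uteri against 2078, 1411 and 2205 in PRKO vehicle uteri, and 2221, 2145 and 2211 in WT P4 uteri against 2427, 1613 and 3079 in WT vehicle uteri. The effects were -0.07 ± 0.17 in PRKO (-0.42 to 0.27) and -0.08 ± 0.17 in WT uteri (-0.42 to 0.27). Hsp90b1 read 2520, 1591 and 1983 in PRKO P4 uteri against 2417, 1562 and 1342 in PRKO vehicle uteri, and 1995, 2015 and 1844 in WT P4 uteri against 2550, 1232 and 2446 in WT vehicle uteri. The groups overlapped in both genotypes, and the effects were 0.21 ± 0.21 in PRKO (-0.22 to 0.65) and -0.03 ± 0.21 in WT uteri (-0.47 to 0.40). Pdia3 read 747, 781.5 and 721.5 in PRKO P4 uteri against 981, 811 and 788 in PRKO vehicle uteri, and 937, 663 and 668 in WT P4 uteri against 940.3, 818 and 879 in WT vehicle uteri. On this deposited scale the PRKO P4 arrays lay just below the PRKO vehicle arrays, while they overlapped after scaling, and the WT groups overlapped on the scaled values too. Its effects were -0.18 ± 0.17 in PRKO (-0.53 to 0.16) and -0.24 ± 0.17 in WT uteri (-0.58 to 0.10). The member effects ran from -0.18 to 0.21 in PRKO and from -0.24 to 0.06 in WT uteri, with 1 of 12 above 0 in WT uteri, against 50.6% of all probe sets, and a median of -0.068, beside 0.001 over all.

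The P4 effect was also compared between genotypes and between times. The difference PRKO minus WT passed for 0 of 12 member probe sets at 40 h (0.105% of all probe sets) and 0 of 12 at 4 h (0.0966% of all) in limma, with 1 of 12 at 40 h and 0 of 12 at 4 h at an unadjusted p under 0.05 (9.1% and 3.49% of all). At 40 h, 1 of 12 member differences was above 0, against 42.1% of all probe sets, with a median of -0.161, beside -0.035 over all. The lean was reversed at 4 h, where 11 of 12 were above 0, against 48.9% of all. The median there was 0.095, beside -0.003 over all. The vehicle arrays of this contrast also enter the genotype comparison given next. In WT uteri the effect at 40 h minus that at 4 h passed for 0 of 12 members (0.475% of all), with 2 of 12 at an unadjusted p under 0.05 (6.39% of all). These were Pdia3, at 0.79 ± 0.23 (0.30 to 1.27, adjusted p = 0.198), and the middle Pdia6 probe set, at 0.62 ± 0.26 (0.06 to 1.17, adjusted p = 0.641). Without WT vehicle 40 h replicate 3 the Pdia3 value was 1.03 and passed, with adjusted p = 0.0181 in a range of 0.0181 to 0.849 over 24 alternatives.

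Loss of the receptor was not accompanied by a called change of the members in vehicle uteri. PRKO against WT vehicle uteri gave 0 of 12 at 40 h (0.0644% of all probe sets) and 0 of 12 at 4 h (0.185% of all) in limma, and 0 of 12 at both times at an unadjusted p under 0.05 (3.08% and 5.02% of all). At 40 h, 11 of 12 member values were above 0, against 45.9% of all probe sets, with a median of 0.138, beside -0.009. The lean did not hold at 4 h, where 3 of 12 were above 0, against 56.3% of all. The median there was -0.031, beside 0.015. Hspa5 in vehicle uteri at 40 h read 2052, 1830 and 1789 in PRKO against 1603, 1720 and 1576 in WT mice, with no overlap and a difference of 0.21 ± 0.17 (-0.14 to 0.55). At 4 h the same difference was -0.29 ± 0.17 (-0.64 to 0.05), with overlap. Pdia4 read 1219, 1078 and 1087 in PRKO against 935.5, 1046 and 1088 in WT vehicle uteri at 40 h, which overlapped as deposited but not after scaling, and differed by 0.14 ± 0.13 (-0.13 to 0.41).

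The single member call of the study lay between the times in vehicle uteri. Pdia3 read 688, 717 and 716 in PRKO and 434, 569 and 862 in WT vehicle uteri at 40 h, against 981, 811 and 788 in PRKO and 940.3, 818 and 879 in WT vehicle uteri at 4 h. Of the 6 arrays at 40 h, 5 lay below all 6 arrays at 4 h, and WT replicate 3 lay among them. Over both genotypes Pdia3 fell by 0.41 ± 0.12 on the log2 scale at 40 h relative to 4 h (interval -0.65 to -0.16, limma adjusted p = 0.0427, 6 arrays against 6). It was 1 of 12 member probe sets to pass, against 6.04% of all probe sets, with 2 of 12 at an unadjusted p under 0.05 (23.9% of all). The other was Pdia4, at 0.24 ± 0.09 (0.04 to 0.43, adjusted p = 0.123). The Pdia3 call was lost in 14 of 23 alternatives, whose adjusted p ran from 0.00724 to 0.112, and the time and any processing batch of the times cannot be told apart.

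Group levels of the members mostly ran into each other. The highest group mean exceeded the lowest by 1.11 times for the bright P4hb probe set to 1.68 times for the bright Pdia6 one. Ordered by mean, each probe set has 7 pairs of neighbouring groups, and all neighbours overlapped except 1 pair each for Pdia3, Pdia4 and the dim P4hb probe set. Hspa5 was highest in WT vehicle uteri at 4 h (2373 ± 735, SD, n = 3) and lowest in WT P4 uteri at 40 h (1574 ± 216). Hsp90b1 was highest in WT P4 uteri at 40 h (2723 ± 289) and lowest in PRKO vehicle uteri at 4 h (1773 ± 568).

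Replicate arrays scattered more at 4 h than at 40 h for 10 of the 12 member probe sets. The pooled SD within groups of log2 signal was 0.23 at 40 h against 0.56 at 4 h for the bright Pdia6 probe set, and 0.13 against 0.38 for Hsp90b1. For Hspa5 it was 0.16 against 0.27, and for Pdia4 0.10 against 0.22. The median over all probe sets was 0.101 at 40 h and 0.139 at 4 h, so wider scatter at 4 h was not particular to the members. Calr, counted among the 10, had 0.12 at both times when rounded. The exceptions were Pdia3, with 0.27 at 40 h against 0.16 at 4 h, and the dim Pdia6 probe set, with 0.11 against 0.10.

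Part of the 4 h scatter lay on the 2 arrays of high Gapdh ratio. The bright Pdia6 probe set read 318 on that WT P4 array, against 619.7 and 634 on its replicates, and 241 on that WT vehicle array, against 672 and 833 on its replicates. Pdia4 read 715.5 and 713 on those arrays, its lowest values in the study, and Hsp90b1 read 1232 on the vehicle one, also its lowest. Over the 12 arrays at 4 h, deviations from group means correlated with those of the log2 Gapdh ratio at r = -0.87 for bright Pdia6, -0.78 for Pdia4, -0.52 for Hsp90b1, -0.46 for Hspa5 and 0.74 for bright P4hb. Without both arrays the values over 10 arrays were -0.67, -0.52, -0.40, -0.12 and 0.44 in that order. Over the 12 arrays at 40 h they were 0 for bright Pdia6, -0.35 for Pdia4, -0.13 for Hsp90b1, -0.34 for Hspa5 and 0 for bright P4hb, while the dim Canx probe set had 0.81. These are descriptions over arrays that share groups, pools and labelling, and the part of RNA integrity in the scatter was not tested.

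**Figure D3:**
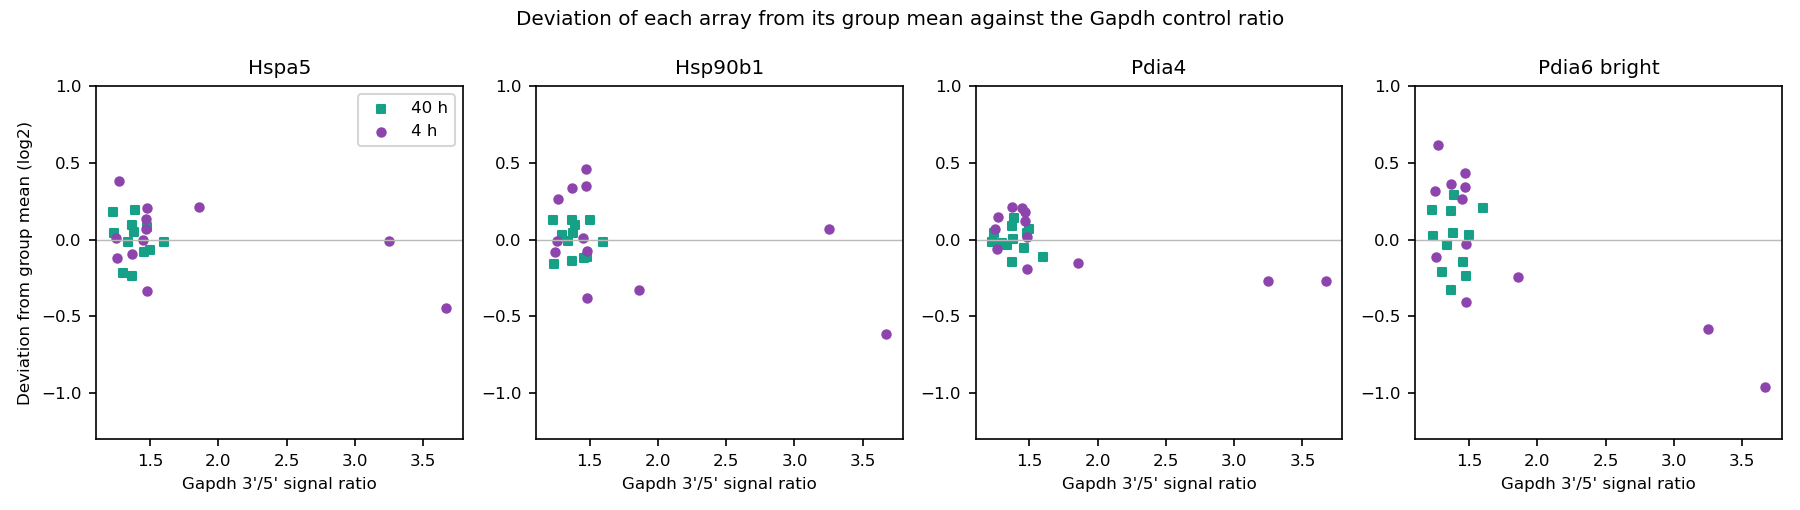
Deviation of each array from its group mean (log2) against the 3' to 5' signal ratio of the Gapdh control for Hspa5, Hsp90b1, Pdia4 and the bright Pdia6 probe set, with 40 h arrays as squares and 4 h arrays as circles. The 2 arrays at ratios of 3.25 and 3.67 hold the lowest Pdia6 and Pdia4 points, and the squares at 40 h stay closer to 0.

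Deviations of replicate arrays from their group means were compared between Hsp90b1, Pdia4 and the bright Pdia6 probe set. Over 12 arrays at 4 h the deviations of Pdia4 and bright Pdia6 correlated at r = 0.94, those of Hsp90b1 and Pdia6 at 0.80 and those of Hsp90b1 and Pdia4 at 0.76. Over 12 arrays at 40 h the same pairs gave 0.47, 0.66 and 0.48. Without both arrays of high Gapdh ratio, a choice made after the data were seen, the 10 arrays at 4 h gave 0.92, 0.92 and 0.94. Hspa5 at 40 h had r of 0.41 to Hsp90b1, 0.65 to Pdia4 and 0.74 to bright Pdia6, the last 2 near or above the values of those 3 genes among themselves. At 4 h it had 0.37, 0.25 and 0.50 over 12 arrays, and -0.26, -0.31 and -0.11 over the 10 arrays. The middle Pdia6 probe set at 4 h had r of 0.67 to Hsp90b1 and 0.89 to Pdia4. The dim Pdia6 probe set at 4 h had r of 0.35 to Hsp90b1, -0.17 to Pdia4 and 0.01 to bright Pdia6. At 40 h the dim one had 0.64, 0.80 and 0.24 in that order. The likeness at 4 h thus held for the bright and middle Pdia6 probe sets, built on the same sequence record, and not for the dim one. The bright P4hb probe set ran against Hsp90b1, at r = -0.64 over 24 arrays. The points share arrays, pools and scaling, so the values describe these arrays only.

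Against the mean log2 signal of the 8 brightest member probe sets, centred within each time over 24 arrays, Hsp90b1 and Pdia6 had r = 0.90 and Pdia4 0.86. Pdia3 had 0.53, Hspa5 0.40, Calr 0.27, Canx 0.14 and P4hb -0.39, so the mean is carried by the first 3. The 5 other genes most like that mean were Sae1 at r = 0.85, Derl2, Nifk and Micos10 at 0.83 each, and D1Pas1 at 0.82. Sae1 encodes a subunit of the SUMO-activating enzyme, Derl2 a protein of ER-associated degradation and Micos10 a protein of the mitochondrial inner membrane. Their own P4 effects at 40 h in WT uteri ran from 0.04 to 0.22, and none passed in limma (adjusted p 0.463 to 0.957).

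Other genes of the secretory route gave 3 calls for P4 in WT uteri at 40 h, where limma called 1.54% of all probe sets and 11.7% had an unadjusted p under 0.05. Of 23 measured ER folding cofactors, Serpinh1 and Kdelr3 rose and none fell (5 at an unadjusted p under 0.05), with a median of 0.121, beside 0.001 over all probe sets. Of 19 measured genes of vesicle coats and cargo receptors, Sec23b rose and none fell (5 unadjusted), with a median of 0.142. Of 20 measured unfolded protein response genes 0 passed in limma (2 at an unadjusted p under 0.05, median -0.073), and of 26 in translocation and N-glycosylation 0 passed (3 unadjusted, median 0.09). Of 27 cytosolic and mitochondrial chaperones 0 passed (4 unadjusted, median -0.002). In PRKO uteri at 40 h 0 genes of these 5 lists passed in limma, where it called 0% of all probe sets. At an unadjusted p under 0.05 there were 1 cofactor gene, 2 coat genes, 1 translocation gene and 0 of the other lists (6.69% of all probe sets).

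Serpinh1 (HSP47), the collagen-specific chaperone, read 2449, 2485 and 2219 in PRKO P4 uteri at 40 h against 2311, 2287 and 1864 in PRKO vehicle uteri, and 3089, 3760 and 3551 in WT P4 uteri against 2052, 1881 and 2175 in WT vehicle uteri. The groups overlapped in PRKO uteri and not in WT uteri. Serpinh1 rose by 0.77 ± 0.13 in WT uteri (limma adjusted p = 0.0015), with 0.12 ± 0.13 in PRKO uteri and a difference of -0.65 ± 0.18 (adjusted p = 0.29). Kdelr3, a receptor that returns escaped chaperones to the ER, read 486, 457 and 427 in PRKO P4 uteri against 310.3, 259.5 and 262 in PRKO vehicle uteri. In WT uteri it read 409.6, 472 and 519 after P4 against 177, 238 and 360.3 after vehicle. Neither pair overlapped. Kdelr3 rose by 0.83 ± 0.18 in WT uteri (adjusted p = 0.0145), with 0.63 ± 0.18 in PRKO uteri (adjusted p = 0.703) and a difference of -0.20 ± 0.25 (-0.72 to 0.31).

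Sec23b, a component of the COPII coat that carries cargo out of the ER, read 1066, 1180 and 984 in PRKO P4 uteri at 40 h against 1510, 1061 and 976 in PRKO vehicle uteri. In WT uteri it read 3072, 2608 and 3110 after P4 against 1618, 1015 and 1371 after vehicle. It rose by 1.15 ± 0.18 in WT uteri (limma adjusted p = 0.00102), with -0.14 ± 0.18 in PRKO uteri, and the PRKO minus WT difference of -1.29 ± 0.25 passed (adjusted p = 0.0491). A second Sec23b probe set gave 0.02 for the WT effect and -0.11 for the difference, so the call rests on 1 of 2 probe sets. The Kdelr3 and Sec23b WT calls were lost in 6 and 1 of 19 alternatives, and the Serpinh1 call in 1. At 4 h the called Sec23b probe set read 2224, 2594 and 1776 in WT P4 uteri against 1352, 1689 and 2111 in WT vehicle uteri. These groups overlapped, and the effect of 0.34 ± 0.18 (-0.03 to 0.72) did not pass (limma adjusted p = 0.869).

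**Figure D4:**
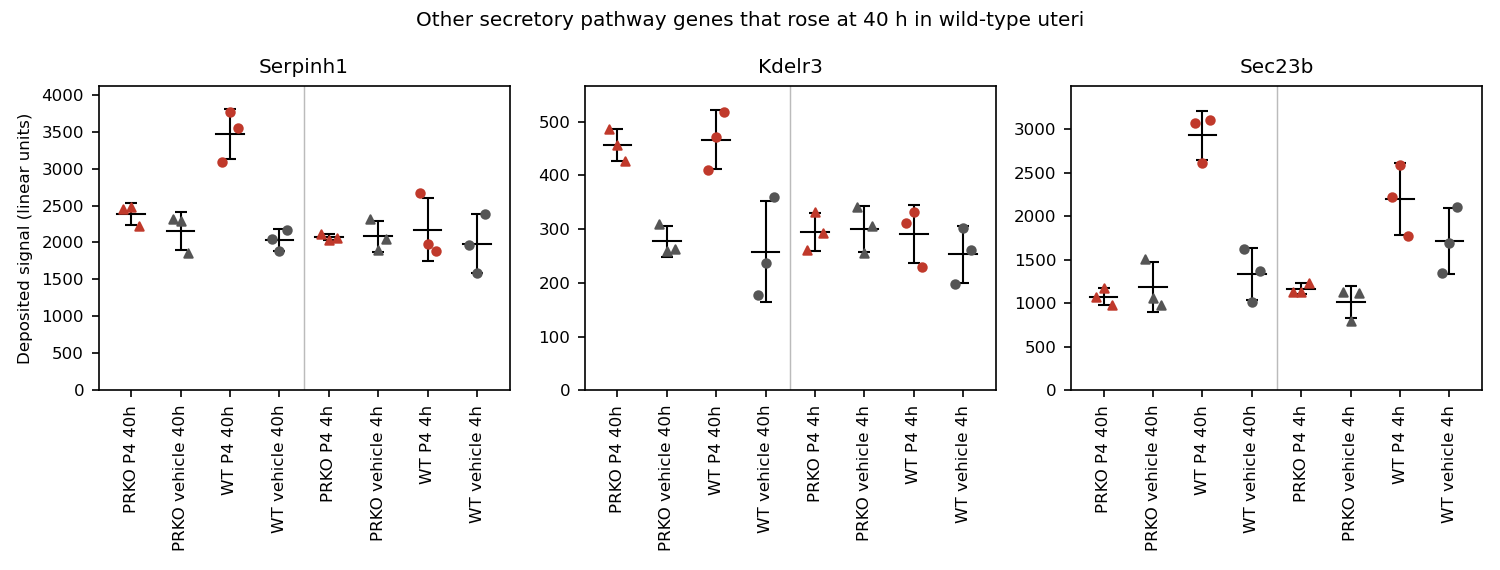
Deposited signal (linear units, axis from 0) of Serpinh1, Kdelr3 and Sec23b on every array, groups and symbols as in the plot of member signals, with bars of mean ± SD of 3 arrays. Serpinh1 stands out on the 3 WT P4 40 h arrays, while Kdelr3 is high on the P4 arrays of both genotypes at 40 h. Sec23b is highest on the WT P4 40 h arrays. The lowest of these, at 2608, lies just above a WT P4 4 h array at 2594.

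Cell markers moved in the same WT comparison at 40 h. In limma 4 of 8 stromal markers rose, and their summed signal was 31002 to 35652 after P4 against 21779 to 28620 after vehicle. For adipocytes 5 of 6 markers fell, with sums of 4645 to 8962 after P4 against 12750 to 15246 after vehicle, and 2 of 9 epithelial markers fell (5904 to 6731 against 7221 to 8001). Sums of smooth muscle markers were 29030 to 31047 after P4 against 24487 to 27558 after vehicle, of skeletal muscle markers 3100 to 3282 against 1422 to 1842, and of plasma and B cell markers 5556 to 9321 against 4994 to 9481. Macrophage markers summed to 2202 to 2389 after P4 against 1855 to 2340 after vehicle, and erythroid markers to 5078 to 7935 against 6760 to 8248. Of these 5 other lists, 1 of 5 skeletal muscle markers rose and none of the rest passed. No marker of any list was at 0, with Adipoq averaging 2467 units over the 24 arrays. The Gapdh ratio was 1.23, 1.24 and 1.3 after P4 against 1.6, 1.48 and 1.5 after vehicle. With the Gapdh ratio as a covariate bright Pdia6 was 0.23, Pdia4 0.05, Hsp90b1 0.41, middle Pdia6 0.46 and Pdia3 0.53, and no member passed. That ratio did not overlap between these P4 and vehicle arrays, so its part and that of P4 were not told apart. With the adipocyte score as a covariate Hsp90b1 was 0.17, the middle Pdia6 probe set 0.26 and Pdia3 0.63, and 0 of 12422 probe sets passed there in limma. The adipocyte score was 8.97, 9.36 and 9.78 after P4 against 10.5, 10.35 and 10.63 after vehicle. It runs with the P4 group, so in that fit adipocyte content and P4 cannot be told apart. The part of the markers in the member values was not tested.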

How the data were processed

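RNA of mouse uteri was hybridized to 24 Affymetrix arrays, 3 in each of 8 groups taken from the sample titles. The authors' deposited values are signal intensity per probe set, made with MAS5 per the submitters' processing notes, with settings, scaling and probe build not given in the sources used here. Of 12488 probe sets, 66 controls were left out, and 10833 of the other 12422 named 1 gene in the platform annotation. Of these, 10817 matched RefSeq by gene identifier.

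Each array was scaled to a 2%-trimmed mean of 500, 32 was added and log2 taken. One limma 3.58.1 model (R 4.3.3) held all 8 group means (intensity trend, 16 residual and 4.98 prior degrees of freedom, two-sided moderated tests). P-values were adjusted by Benjamini-Hochberg over all tested probe sets in each of 10 comparisons, some of which share arrays. The fit was tested on simulated data with independent noise and the same spread on all arrays. That setting leaves out the wider scatter at 4 h and any pairing of arrays. Depth has no counterpart on arrays, and 3 arrays per group limit the precision. The members and gene lists were chosen with earlier results of these data known.

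All member probe sets are named. Of other lists, passing genes are named, at their brightest probe set. Same-numbered arrays of the WT comparison at 4 h correlated at 0.114, 0.516 and 0.35 in their deviations from group means, all over 0.1, so the numbers may pair them. The 0.516 was that of replicate 2, the arrays of high Gapdh ratio. Every other comparison of 3 arrays with 3 had at least 1 pair below 0.1. Single pairs there were higher, at 0.627 for replicate 1 of P4 and vehicle in PRKO uteri at 4 h. Replicate 1 of PRKO and WT vehicle uteri at 4 h had 0.599, so pairing in those comparisons was not settled. Alternatives covered the offset, scaling, low probe sets, arrays in the fit, replicate block, Gapdh and adipocyte covariates, variance by time, the prior and leaving out arrays.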

Additional observations from a re-analysis of the deposited data

Results flagged for a closer look

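Sec23b was the gene of the secretory lists whose P4 effect at 40 h differed between genotypes by the test of the difference, at -1.29 ± 0.25 for PRKO minus WT (95% interval -1.82 to -0.76, limma adjusted p = 0.0491). All 3 WT P4 arrays lay above all 3 WT vehicle arrays, while the PRKO arrays overlapped. A second Sec23b probe set gave -0.11 for the same difference. In vehicle uteri at 4 h, without P4, the called probe set read 1125, 799 and 1116 in PRKO against 1352, 1689 and 2111 in WT mice, with all PRKO arrays lower, and the difference of -0.74 ± 0.18 did not pass (adjusted p = 0.168). The adjusted p of the 40 h difference ran from 0.00701 to 1 over 25 alternatives, of which 11 passed.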

How the results depend on the processing

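The count of member probe sets called for P4 in WT uteri at 40 h was 0 and became 2 with arrays of the same time only (Hsp90b1 and the middle Pdia6 probe set, among 4.34% of all probe sets), 1 with arrays of the groups compared only, 1 with the replicate block (Pdia3, adjusted p = 0.0473), 2 with variance by time, and 0 to 1 when 1 array was left out. The difference of the WT effects between times went to 0 to 1 on leaving out 1 array. The vehicle count of 40 h against 4 h was 1 and became 0 with no further scaling, 0 with the groups compared only, 0 with the adipocyte covariate, 0 with variance by time, 2 without both arrays of high Gapdh ratio (adding Hspa5 at -0.35), and 0 to 2 on leaving out 1 array. The replicate block changed no member count in the 8 other comparisons it was run for, the WT comparison at 4 h among them, and was not run between the vehicle times. The cause of these moves was not tested. Of 2522 member values under alternatives, 166 had the other sign, each from a value of at most 0.19 in size that was not called. Sec23b kept a difference between genotypes of -1.44 to -1.10 under 25 alternatives, of which 11 passed. The filter on probe sets averaging under 100 left out Calr. Over all probe sets, the WT count at 40 h was 191 and became 539 with arrays of the same time only, 386 with the replicate block, 581 with variance by time, 369 with the Gapdh covariate and 0 with the adipocyte covariate, and 90 to 189 on leaving out 1 array. Over all alternatives the other counts ran from 10 to 138 for WT P4 at 4 h (88 reported), 0 to 46 and 1 to 42 for the genotype difference at 40 h and 4 h (13 and 12), 1 to 24 and 1 to 34 for PRKO against WT vehicle (8 and 23), 12 to 112 for the time difference (59), 0 to 1 and 0 to 2 for P4 in PRKO uteri (0 and 0), and 256 to 1209 between the vehicle times (750).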

Other observations

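Between the times in vehicle uteri, where 6.04% of all probe sets passed (445 higher and 305 lower at 40 h), several chaperones outside the member set passed. Of 27 measured cytosolic and mitochondrial chaperones, 3 fell and 1 rose at 40 h relative to 4 h. Hspa1a and Hspa1b, the heat-inducible Hsp70 pair, had log2 values of -0.61 ± 0.14 and -0.53 ± 0.15 (limma adjusted p = 0.0182 and 0.0441), and their near-identical transcripts may share probes. Hspa9, the mitochondrial Hsp70, fell by 0.33 ± 0.07 (adjusted p = 0.00983), and the small heat shock protein Hspb1 rose by 0.30 ± 0.08 (adjusted p = 0.0384). Of 23 ER folding cofactors Dnajb11, a partner of Hspa5, fell by 0.36 ± 0.08 (adjusted p = 0.0155). Of 20 unfolded protein response genes, Edem1 rose by 0.23 ± 0.07 and Nfyb, a subunit of the factor that binds the CCAAT box, fell by 0.27 ± 0.06 (adjusted p = 0.0469 and 0.015). Of 26 genes of translocation and N-glycosylation, Sec11a fell by 0.27 ± 0.07 (adjusted p = 0.0293). The single calls among cofactors and among translocation genes are shares at or below that of all probe sets. Hspb1 and Edem1 had low signals. Hspb1 averaged 58.68 in WT and 68.8 in PRKO vehicle uteri at 4 h, against 79.23 and 94.91 at 40 h. Edem1 averaged 81.1 in WT and 92.42 in PRKO vehicle uteri at 4 h, against 106.6 and 110.6 at 40 h. As for Calr, the added offset compresses such fold changes, and the alternative fit without low probe sets held neither gene. Over the alternatives Edem1 passed in 7 of 22, Hspb1 in 11 of 22, Hspa1b in 11 of 23, Sec11a in 16 of 23, Hspa1a and Nfyb in 22 of 23 each, and Dnajb11 and Hspa9 in all 23.

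The ER stress response element stood in windows of 37 genes, of which 12 were measured and 7 were not members (Adcy3, Creld2, Dnajc3, Ero1b, Pan2, Ptgdr2 and Zfp57). This list was chosen after values were seen. Of these 7, 0 passed in any comparison in limma. For P4 in WT uteri at 40 h there were 0 at an unadjusted p under 0.05, and their median was 0.025, beside 0.001 over all probe sets.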
